A study of Mus musculus with 98 samples.

Results

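The 7 genes Pdlim1, Slc9a2, Kitl, Baalc, Lmcd1, Papss2 and Trim47 were followed through every count table of a study of the enzyme ACSS2 in mouse hippocampal neurons exposed to human tau and in mouse hippocampus. They are 7 of 55852 gene symbols listed in any of the 6 tables, and each of the 6 tables lists all 7. The genes were picked because their counts differed between tau-treated and PBS-treated cultures on day 21 in the tables of virus-treated neurons, so the day 21 differences in those tables are described here without a test. Tests were kept for cultures on day 9, cultures that received no virus, and mice. The day 9 cultures share a table with libraries used for the choice, so their values may have been in view. Their tests are not independent of the choice in the way that those of virus-free cultures and mice are.

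Tau is a microtubule-binding protein that aggregates in Alzheimer's disease, and aggregated tau taken from diseased brain can seed further aggregation when neurons take it up. ACSS2 makes acetyl-CoA from acetate, and in neurons it supplies acetyl-CoA for histone acetylation near active genes. The 7 genes belong to different pathways. Pdlim1 encodes a PDZ and LIM domain adaptor that links alpha-actinin to actin fibres, and Slc9a2 encodes a plasma membrane exchanger of sodium for protons. Kitl encodes stem cell factor, the ligand of the receptor tyrosine kinase Kit, and Baalc encodes a membrane-associated protein of neural and haematopoietic progenitor cells. Lmcd1 encodes a LIM domain cofactor of transcription, Papss2 makes the activated sulfate that sulfotransferases use, and Trim47 encodes a ubiquitin ligase of the tripartite motif family.

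The cultured cells were primary embryonic hippocampal neurons of CD1 mice. They received a PhP.eB virus carrying ACSS2 (upACSS2) or the empty vector on day 5, then tau from human Alzheimer's disease brain (hAD-tau) or PBS on day 7, and were harvested on day 9 or day 21 with 3 libraries in each of the 8 groups. A second table holds stimulated day 21 neurons in the same 4 combinations of virus and tau, 3 libraries each, and the labels give no strain and no stimulating agent for them. Another holds day 21 CD1 cultures with no virus, 3 with PBS and 4 with hAD-tau. The mice were males given upACSS2 or vector virus behind the eye: C57BL6 mice aged 22 to 23 months after a memory recall test (12 and 12, whole hippocampus), C57BL6 mice aged 10 months after fear conditioning (6 and 5, dorsal hippocampus), and PS19 mice. PS19 mice carry a mutant human tau transgene under the Prnp promoter, in every PS19 group here, and no PS19 littermate without the transgene was analysed. They were injected at 2.5 months of age and taken 1 month later (at 3.5 months) or 6 months later (at 8.5 to 9 months), 5 mice in each of the 4 groups. At 1 month the upACSS2 samples are labelled whole hippocampus and the vector samples dorsal hippocampus, so virus and dissection cannot be told apart there. The labels do not say that libraries of a culture group came from separate cultures, so p-values measure the spread between these libraries, which may be technical.

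Library totals ran from 14603730 to 33960722 counts in the unstimulated table, 18804544 to 39985460 in the stimulated table and 5683314 to 29890248 in the cultures without virus. In the mice they ran from 11436140 to 28161314 at 22 to 23 months, from 5075099 to 10839489 at 10 months and from 6910945 to 33259982 in PS19. Levels are given as CPM (read counts relative to library size, scaled within each table), so levels in different tables were normalized separately. Acss2 checked the virus labels: on day 21 it stood at 44.6 to 57 CPM with vector and 2180 to 4440 CPM with upACSS2, and the stimulated and day 9 groups did not overlap either. In C57BL6 mice the difference was small. At 22 to 23 months vector libraries stood at 40 to 53.7 CPM and upACSS2 libraries at 46.7 to 61.5 CPM, so the groups overlapped. At 10 months they stood at 42.3 to 48.8 against 49.9 to 59.3 CPM, without overlap. In PS19 mice upACSS2 libraries ranged from 60.1 to 1460 CPM at 1 month, with replicate 4 within the vector range of 51.5 to 66.3, and from 44.9 to 237 CPM at 6 months against 43.1 to 56 with vector. The cultures carried neuronal markers throughout: the summed level of 8 neuron genes was 4980 to 9250 CPM on unstimulated day 21, and 3360 to 6260 CPM in the cultures without virus. They also carried astrocyte markers, whose 10-gene sum was 2340 to 2900 CPM on day 9 and 3780 to 20800 CPM on unstimulated day 21.

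In the GRCm38 gene models of GENCODE M21, Pdlim1 lies on chr19:40221173-40271842 (minus strand) and Papss2 on the same chromosome at chr19:32595790-32667187 (plus). Lmcd1 lies on chr6:112273758-112330425 (plus), Kitl on chr10:100015630-100100416 (plus), Baalc on chr15:38933144-38952912 (plus), Slc9a2 on chr1:40680574-40769273 (plus) and Trim47 on chr11:116105752-116127210 (minus). Lmcd1, Baalc and Slc9a2 each overlap an antisense gene, and the model of Trim47 overlaps Trim65 on the same strand. The strand setting of the counting is not given in the sources used here, so reads from such neighbours cannot be told apart from the members' own. RefSeq promoter sequences (GRCm38.p6) matched 5 of the 7 genes. Those shown belong to Lmcd1, Papss2 and Trim47, which moved together across the day 21 libraries, and to Pdlim1, the member whose tau and PBS groups did not overlap in any of the 4 day 21 settings. Each runs 5′ to 3′ within the 250 bases before the start site, without bases in annotated exons of its gene, and capitals mark a GC box (GGGCGG on either strand) or a cAMP response element (TGACGTCA). The stretches are chr6:112273508-112273757 (plus) for Lmcd1, chr19:32595465-32595714 (plus) for Papss2, chr11:116110247-116110485 (minus) for Trim47 and chr19:40271617-40271815 (minus) for Pdlim1. The Trim47 and Pdlim1 stretches lie inside the gene models given above, before RefSeq start sites internal to those models.
Lmcd1: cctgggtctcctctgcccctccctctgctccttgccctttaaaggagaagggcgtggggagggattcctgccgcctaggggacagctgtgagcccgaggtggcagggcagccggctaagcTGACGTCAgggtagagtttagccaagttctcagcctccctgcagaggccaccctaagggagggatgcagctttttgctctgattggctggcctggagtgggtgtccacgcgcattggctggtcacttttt
Papss2: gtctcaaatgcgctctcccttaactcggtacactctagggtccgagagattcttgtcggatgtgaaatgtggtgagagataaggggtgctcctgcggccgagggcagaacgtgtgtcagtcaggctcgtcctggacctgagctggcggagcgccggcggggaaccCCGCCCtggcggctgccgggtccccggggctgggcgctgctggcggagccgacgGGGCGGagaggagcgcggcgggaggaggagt
Trim47: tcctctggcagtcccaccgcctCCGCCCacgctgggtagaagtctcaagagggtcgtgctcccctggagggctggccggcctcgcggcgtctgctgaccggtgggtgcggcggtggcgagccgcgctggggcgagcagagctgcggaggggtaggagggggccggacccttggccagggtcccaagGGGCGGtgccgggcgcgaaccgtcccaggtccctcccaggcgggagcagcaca
Pdlim1: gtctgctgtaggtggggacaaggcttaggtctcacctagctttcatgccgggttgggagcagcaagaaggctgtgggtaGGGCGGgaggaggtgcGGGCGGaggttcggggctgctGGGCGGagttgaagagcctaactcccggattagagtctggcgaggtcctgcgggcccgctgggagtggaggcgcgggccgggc

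The 3 genes that moved together shared no motif of the 6 searched on both strands. Lmcd1 held the cAMP response element, which 1.55% of 32851 mouse promoter windows of the same length hold, and no GC box. Papss2 and Trim47 held 2 GC boxes each and Pdlim1 held 3, and 32.7% of all windows hold at least 1. Kitl held 3 GC boxes and a TATA box (TATAAA, in 12.4% of windows), all of them within annotated exons of Kitl. Motifs were counted over full windows, including bases in exons. Papss2 also held the hypoxia element core ACGTG (16.6% of windows), and a second Papss2 start site at chr19:32619755-32620004 held a TEAD motif (GGAATG, 12.6%). The AP-1 motif TGANTCA, in 6.75% of windows, was in none of these windows. The GC content of the first-listed windows was 61.2% to 75.2% against a median of 52.4% over all windows. The GC box can overlap itself, as it does in Kitl, and a match is a description of letters only.

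Pdlim1, the actin adaptor, was higher with tau in all 4 virus and stimulation settings on day 21, and its groups did not overlap in any of them. In vector neurons the PBS libraries stood at 1.23, 0.923 and 1.31 CPM and the tau libraries at 6.38, 2.71 and 5.72 CPM. With upACSS2 they stood at 0.737, 1.17 and 1.7 CPM with PBS and at 3.92, 4.09 and 2.14 CPM with tau. The lowest tau library was thus above the highest PBS library in each virus group, and the log2 differences were 2.08 ± 0.39 (SE, n = 3 and 3) with vector and 1.51 ± 0.40 with upACSS2. In stimulated vector neurons PBS libraries stood at 0.505, 1.03 and 1.24 CPM and tau libraries at 5.73, 2.27 and 15.5 CPM, a log2 difference of 3.04 ± 0.67. In stimulated upACSS2 neurons they stood at 1.21, 1.12 and 0.722 CPM against 1.89, 4.95 and 7.42 CPM, a log2 difference of 2.21 ± 0.65. These are low levels, 11 to 339 reads per stimulated library, and the tau libraries spread more widely than the PBS libraries.

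Slc9a2, the sodium-proton exchanger, was also higher with tau on average in all 4 settings, but separated only after stimulation. Unstimulated vector neurons held 2.01, 1.31 and 1.03 CPM with PBS and 3.93, 1.25 and 4.23 CPM with tau. Unstimulated upACSS2 neurons held 1.15, 1.04 and 3.65 CPM with PBS and 4.68, 4.82 and 1.92 CPM with tau. In both virus groups 1 library crossed over, and the log2 differences were 1.13 ± 0.57 and 0.99 ± 0.57 (SE, n = 3 and 3). Stimulated vector neurons held 1.42, 1.55 and 2.61 CPM with PBS against 5.15, 2.87 and 6.01 CPM with tau, a log2 difference of 1.33 ± 0.36. Stimulated upACSS2 neurons held 1.57, 0.674 and 1.75 CPM against 5.25, 6.72 and 5.3 CPM, a log2 difference of 2.12 ± 0.36, with no overlap in either virus group. Microglial markers were also higher beside these 2 genes, at low levels: the 7-gene sum was 17.8 to 21.7 CPM with PBS and 24.2 to 26.5 CPM with tau in unstimulated upACSS2 neurons, and 24.7 to 31.2 against 30.4 to 41.8 CPM with vector. After stimulation it was 21.2 to 22.5 against 25.7 to 28.3 CPM with upACSS2 and 25.5 to 25.9 against 28.7 to 32.2 CPM with vector, and none of the 7 was at 0 throughout a group. The part of these cells in the differences was not tested, and in bulk RNA a change in the number of cells of a type cannot be told apart from a change in RNA per cell.

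**Figure D1:**
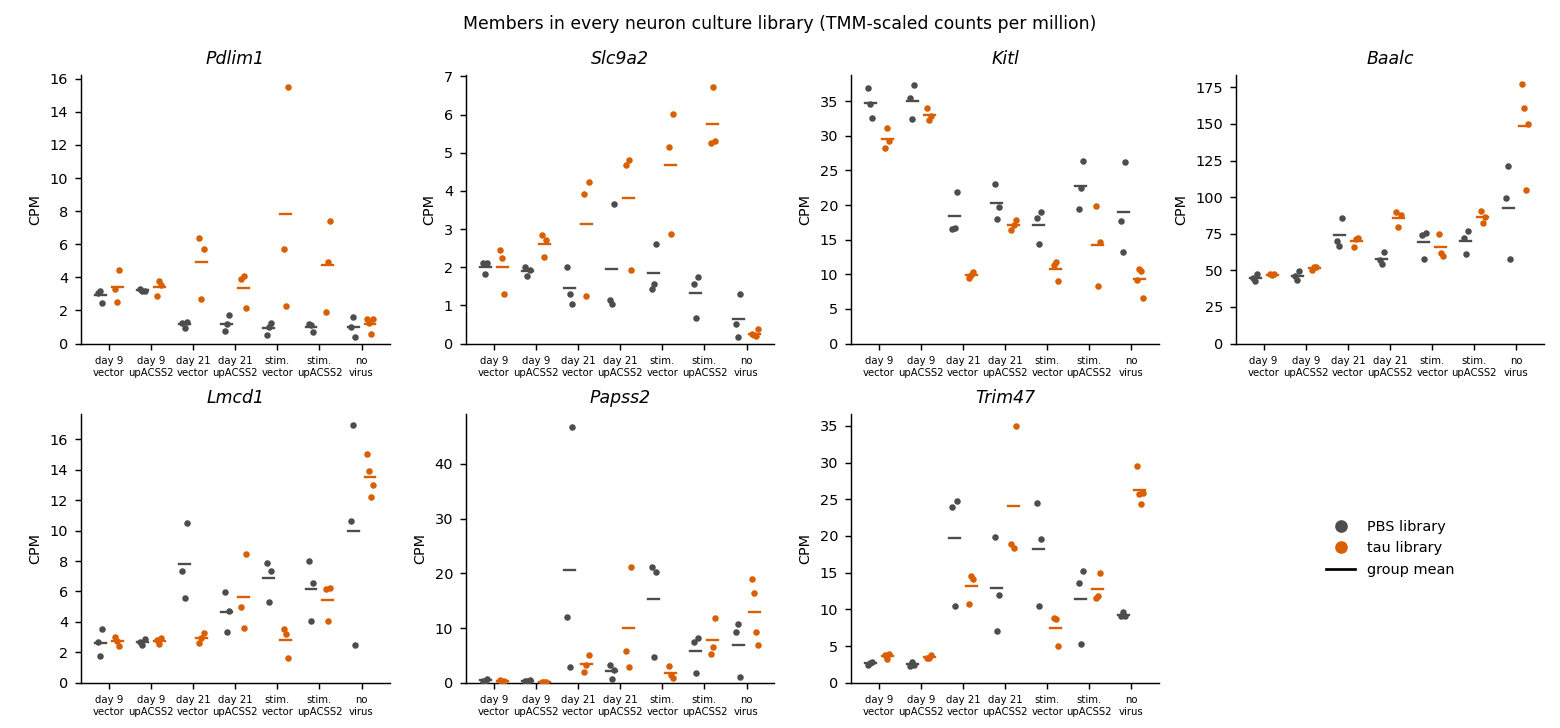
CPM of each of the 7 genes in every culture library (linear axis from 0), by day, virus, stimulation and tau or PBS, with each point a library and each bar the group mean. Pdlim1 tau libraries lie above PBS libraries in all 4 virus-treated day 21 settings, and Kitl tau libraries lie below PBS libraries in vector neurons.

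Kitl, the Kit ligand, was lower with tau in vector neurons on day 21. The PBS libraries stood at 16.6, 16.7 and 21.9 CPM and the tau libraries at 9.48, 9.96 and 10.3 CPM, a narrow band with a log2 difference of -0.90 ± 0.14 (SE, n = 3 and 3). With upACSS2 the PBS libraries stood at 23, 18 and 19.7 CPM and the tau libraries at 16.4, 17.1 and 17.9 CPM, a log2 difference of -0.23 ± 0.14. The highest tau library and the lowest PBS library stood side by side, and their order changes with the set of libraries used for scaling. Stimulated vector neurons held 18.1, 14.4 and 19 CPM with PBS and 11.3, 11.8 and 9.08 CPM with tau, a log2 difference of -0.67 ± 0.25. Stimulated upACSS2 neurons held 19.4, 22.5 and 26.3 CPM with PBS against 19.9, 8.32 and 14.6 CPM with tau, also -0.67 ± 0.25, and there tau replicate 1 lay inside the PBS range. The receptor gene Kit differed little, by 0.15 ± 0.13 on the log2 scale in unstimulated vector neurons and by 0.05 ± 0.13 in stimulated ones.

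Baalc had the highest level of the 7 per kilobase of exon on unstimulated day 21 (a median of 70.5 CPM over 4.141 kilobases), and separated by tau only in upACSS2 neurons. Vector neurons held 69.7, 66.3 and 85.7 CPM with PBS and 65.9, 71.3 and 72.3 CPM with tau, a log2 difference of -0.09 ± 0.11 (SE, n = 3 and 3). With upACSS2 they held 57, 54.5 and 62.4 CPM with PBS and 90.1, 79.9 and 88.1 CPM with tau, a log2 difference of 0.58 ± 0.11. The upACSS2 PBS libraries also lay below all vector PBS libraries, with a log2 difference of -0.36 ± 0.11, and the upACSS2 tau libraries above all vector tau libraries, with one of 0.31 ± 0.11. Stimulated neurons also separated by tau with upACSS2 and not with vector, with 74.4, 57.7 and 75.4 against 75, 61.8 and 60.1 CPM with vector and 72, 61.1 and 76.7 against 90.8, 82 and 86.1 CPM with upACSS2. The stimulated log2 differences were -0.07 ± 0.12 with vector and 0.30 ± 0.12 with upACSS2, and there the PBS libraries of the 2 viruses overlapped (0.02 ± 0.12).

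Lmcd1, Papss2 and Trim47 were lower with tau in vector neurons and not lower in unstimulated upACSS2 neurons. Lmcd1, the transcription cofactor, stood at 7.36, 5.54 and 10.5 CPM with PBS and 2.63, 2.92 and 3.3 CPM with tau in vector neurons, a log2 difference of -1.42 ± 0.35 (SE, n = 3 and 3). With upACSS2 it stood at 5.94, 3.33 and 4.75 CPM with PBS and 4.95, 3.58 and 8.43 CPM with tau, a log2 difference of 0.29 ± 0.34, and the groups overlapped. After stimulation the vector libraries held 7.9, 5.33 and 7.35 CPM with PBS and 3.52, 3.21 and 1.65 CPM with tau (-1.29 ± 0.31). The stimulated upACSS2 libraries held 7.98, 4.04 and 6.53 CPM with PBS and 6.15, 4.04 and 6.21 CPM with tau (-0.18 ± 0.30). The vector groups separated in both tables and the upACSS2 groups in neither.

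Papss2, the sulfate-activating enzyme, had the widest spread of the 7. Vector neurons held 12, 2.85 and 46.8 CPM with PBS and 1.91, 3.18 and 5.11 CPM with tau, a log2 difference of -2.64 ± 0.96 (SE, n = 3 and 3) that was -1.12 without PBS replicate 3. UpACSS2 neurons held 3.24, 0.735 and 2.4 CPM with PBS and 5.91, 2.85 and 21.1 CPM with tau, a log2 difference of 2.25 ± 0.98, and neither virus group separated. Stimulated vector neurons did separate, at 21.1, 4.74 and 20.2 CPM with PBS against 3.05, 1.47 and 0.825 CPM with tau (-3.12 ± 0.70). Stimulated upACSS2 neurons held 7.51, 1.74 and 8.15 CPM with PBS and 5.25, 6.51 and 11.8 CPM with tau (0.44 ± 0.62).

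Trim47, the ubiquitin ligase, stood at 24, 10.5 and 24.8 CPM with PBS and 10.8, 14.6 and 14.1 CPM with tau in vector neurons, a log2 difference of -0.60 ± 0.40 (SE, n = 3 and 3) with overlap. With upACSS2 it stood at 19.8, 7.05 and 11.9 CPM with PBS and 18.9, 18.3 and 35 CPM with tau, a log2 difference of 0.91 ± 0.40, again with overlap. Stimulated vector neurons separated, at 24.5, 10.4 and 19.6 CPM with PBS against 8.78, 8.7 and 5.04 CPM with tau (-1.26 ± 0.38). Stimulated upACSS2 neurons did not, at 13.6, 5.28 and 15.2 CPM against 11.5, 11.8 and 14.9 CPM (0.17 ± 0.37).

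The summed astrocyte markers moved beside these 3 genes. In unstimulated vector neurons the sum was 8400, 4830 and 20800 CPM with PBS and 3780, 5950 and 5960 CPM with tau, in replicate order, and PBS replicate 3 held both the highest sum and the highest Papss2. All 10 astrocyte genes were lower with tau there (median log2 difference -0.85), against a median of -0.01 over all genes. With upACSS2 the sum was 6850, 4170 and 5730 CPM with PBS and 7730, 6280 and 11800 CPM with tau, and 9 of 10 astrocyte genes were higher (median 0.39). In stimulated vector neurons 0 of 10 were higher (median -0.77), and in stimulated upACSS2 neurons 3 of 10 (median -0.10). Some other lists moved likewise. The 3 mural genes tested had medians of -0.46 with vector and 0.85 with upACSS2 without stimulation, and -0.70 and 0.27 after it. The 5 oligodendrocyte genes had medians of -0.43 and 0.17, then -0.45 and -0.27. Not all lists did: microglial and neuron medians were above 0 in all 4 settings. The part of any of these cells in the differences of Lmcd1, Papss2 and Trim47 was not tested.

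**Figure D2:**
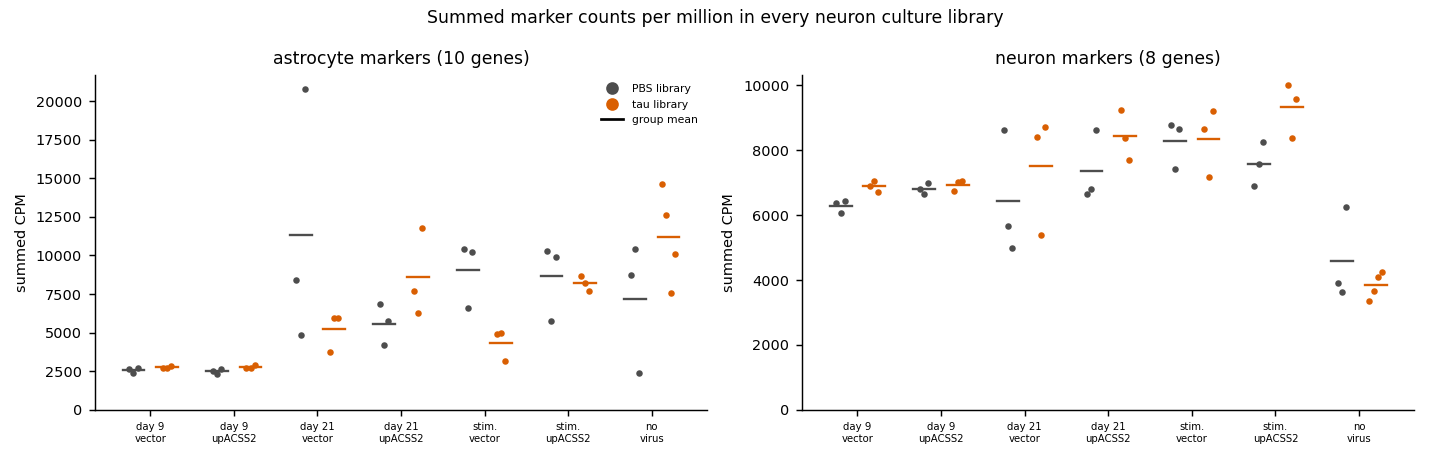
Summed CPM of the 10 astrocyte and the 8 neuron markers in each culture library, with each point a library and each bar the group mean (linear axes from 0). In unstimulated vector neurons the astrocyte sum runs from 4830 to 20800 CPM with PBS and from 3780 to 5960 CPM with tau.

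Counted over the 7 genes, the groups did not overlap for 3 in unstimulated vector neurons (Pdlim1 higher, Lmcd1 and Kitl lower with tau), in a comparison where 9.68% of all genes tested did not overlap. The same held for 2 in unstimulated upACSS2 neurons (Pdlim1 and Baalc, both higher, background 17.4%), for 6 in stimulated vector neurons (all but Baalc, background 26.7%) and for 3 in stimulated upACSS2 neurons (Pdlim1, Slc9a2 and Baalc, all higher, background 23.7%). The genes were chosen on these contrasts, so nothing is read from these counts. Tau-treated upACSS2 neurons were set beside tau-treated vector neurons in the same way. Lmcd1, Kitl, Baalc and Trim47 were higher in every upACSS2 library without stimulation (4 of 7, background 21.6%), and Lmcd1, Papss2, Baalc and Trim47 after it (4 of 7, background 24.7%). Kitl differed there by 0.80 ± 0.14 on the log2 scale, Lmcd1 by 0.95 ± 0.35 and, after stimulation, Papss2 by 2.16 ± 0.70. These comparisons share the tau-treated libraries that chose the genes and are likewise descriptions.

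**Figure D3:**
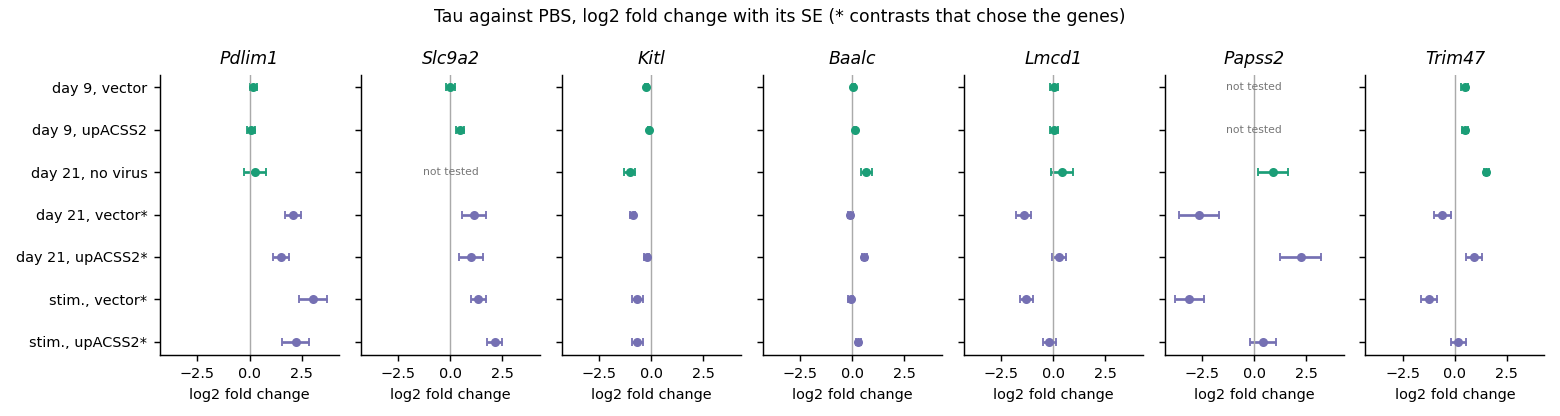
Log2 difference of tau against PBS for each of the 7 genes in each culture comparison, with bars of 1 SE and a star on the comparisons that chose the genes. Pdlim1 lies above 0 and Kitl below 0 in all 7 comparisons, but 4 of these chose the genes. In the other 3 the Pdlim1 values are 0.19 ± 0.18, 0.07 ± 0.17 and 0.26 ± 0.53. Trim47 lies at -1.26 in stimulated vector neurons and at 1.5 in the cultures without virus.

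Across the 24 virus-treated day 21 libraries, some members varied together. Papss2 and Trim47 had a correlation of log2 CPM, centred within each table, of 0.90, Lmcd1 and Papss2 of 0.85, and Lmcd1 and Trim47 of 0.78. Pdlim1 and Slc9a2 correlated at 0.80, and Pdlim1 and Kitl at -0.76. Among 12443 genes compared, the nearest to Pdlim1 were Ndrg1 (0.91), Slc15a4 (0.91) and Egln3 (0.90), and to Slc9a2 Syndig1l, Pdk1 and Prss35 (each 0.95). The nearest to Trim47 were S100a4 (0.97), S100a6 (0.94) and Lif (0.94), to Papss2 Mxra8, Mtmr11 (each 0.96) and S100a6 (0.95), and to Lmcd1 H1f2, Slc4a2 (each 0.95) and Hopx (0.94). The nearest to Baalc were Angptl4 (0.91), Crot (0.88) and Spidr (0.87), and to Kitl Gpc4 and Neto2 (each 0.85) and Nhs (0.84). These correlations describe libraries that share the groups, the tau effect that chose the members and the spread in astrocyte markers.

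On day 9, when tau had been present for 2 days, Kitl was the only member that passed the test, and its difference was small. Vector neurons held 36.9, 34.6 and 32.5 CPM of Kitl with PBS and 28.3, 31.1 and 29.3 CPM with tau, so that every tau library lay below every PBS library. The fall was 0.24 ± 0.07 on the log2 scale (SE, n = 3 and 3, edgeR adjusted p = 0.0393), a 1.18-fold difference. It was 1 of 6 members tested, where 4.28% of all 14022 genes passed. The call was lost without PBS replicate 1 (edgeR adjusted p = 0.243), PBS replicate 2 (0.0712), tau replicate 1 (0.168) or tau replicate 2 (0.0914). With upACSS2 the libraries stood at 35.5, 32.4 and 37.3 CPM with PBS and 34, 32.2 and 32.8 CPM with tau, and the log2 difference of -0.09 ± 0.06 did not pass (edgeR adjusted p = 0.724). The difference between the virus groups in the tau effect was 0.15 ± 0.09 on the log2 scale and did not pass either (edgeR adjusted p = 0.401).

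Trim47 was higher in every day 9 tau library in both virus groups without passing the adjusted test. Vector neurons held 2.45, 2.71 and 2.85 CPM with PBS and 3.79, 3.31 and 3.94 CPM with tau, a log2 difference of 0.47 ± 0.16 (SE, n = 3 and 3, edgeR adjusted p = 0.0825). UpACSS2 neurons held 2.31, 2.9 and 2.41 CPM against 3.34, 3.33 and 3.82 CPM, a log2 difference of 0.49 ± 0.15 (edgeR adjusted p = 0.22). This is the opposite sign to the day 21 vector neurons and the same sign as the day 21 upACSS2 neurons. The difference between the days was not tested. Kitl and Trim47 were the 2 of 6 members whose vector groups did not overlap (background 20.8%), and Baalc, Slc9a2 and Trim47 the 3 of 6 with upACSS2 (background 16%).

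Pdlim1 showed no such separation on day 9. Its vector libraries stood at 3.07, 3.2 and 2.48 CPM with PBS and 3.28, 2.54 and 4.44 CPM with tau (log2 difference 0.19 ± 0.18, edgeR adjusted p = 0.593), and the difference was -0.03 without tau replicate 3. With upACSS2 it was 0.07 ± 0.17. Slc9a2 differed by -0.01 ± 0.21 with vector and 0.44 ± 0.19 with upACSS2 (edgeR adjusted p = 0.466), and Lmcd1 by 0.04 in both. Baalc differed by 0.06 ± 0.06 with vector and by 0.15 ± 0.05 with upACSS2 (edgeR adjusted p = 0.34). Papss2 was too low to be tested, at 1 to 13 reads and 0.0591 to 0.727 CPM per library. In upACSS2 neurons 0 of 6 members passed with edgeR, where 0.349% of all genes did. At an unadjusted p under 0.05 there were 3 members and 1269 of all 14022 genes, and DESeq2 called 0 members.

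In day 9 upACSS2 neurons against vector neurons, 0 of 6 members passed by edgeR, with PBS (10.2% of all genes passed) or with tau (0.692% passed). At an unadjusted p under 0.05 there were 0 members and 3679 of 14022 genes with PBS, and 2 members (Kitl and Baalc) and 1761 genes with tau. DESeq2 also called 0 members in both. Of the marker lists beside the day 9 vector comparison, the 4 genes of dividing cells (median log2 difference -0.53), the 5 of oligodendrocyte precursors (-0.72) and the 7 activity genes (-0.87) were all lower with tau, and the 8 neuron genes all higher (0.09). Astrocyte genes were split, with 4 of 10 higher (median -0.08). Their part in the fall of Kitl was not tested.

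In day 21 cultures that never received virus, Trim47 and Kitl separated by tau and none of the members passed the adjusted test with edgeR. Trim47 stood at 9.11, 9.6 and 9.11 CPM with PBS and at 29.5, 25.7, 24.3 and 25.8 CPM with tau. All 4 tau libraries were more than 2-fold above all 3 PBS libraries, and the log2 difference was 1.50 ± 0.12 (SE, n = 3 and 4), a 2.83-fold difference. Its p was the smallest of 16341 genes, yet its adjusted p was 0.0506 with edgeR, just above the threshold of 0.05. With other size factors (RLE) it was 0.0448, without the filter on low counts 0.0397, and with DESeq2 8.06e-24. With the replicate number as a block, since same-numbered libraries deviated together, the log2 difference was 1.50 and the edgeR adjusted p 0.262. The sign was that of the day 9 neurons and the opposite of the vector neurons on day 21, whose groups overlapped without stimulation. Day 21 upACSS2 neurons had the same sign as the virus-free cultures, at 0.91 ± 0.40 without stimulation and 0.17 ± 0.37 after it, both with overlap.

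Kitl in the same cultures stood at 17.7, 13.2 and 26.2 CPM with PBS and at 9.19, 10.7, 10.5 and 6.62 CPM with tau. Again no library crossed over, and the log2 difference was -1.04 ± 0.27 (SE, n = 3 and 4), 2.06-fold lower. Its edgeR adjusted p was 0.306 and its DESeq2 adjusted p 0.0359. With each library left out in turn, the Kitl difference ran from -1.26 to -0.72 and the edgeR adjusted p from 0.167 to 0.627. Baalc was at 99.2, 121 and 57.7 CPM with PBS and 177, 161, 105 and 150 CPM with tau, with tau replicate 3 inside the PBS range (log2 difference 0.68 ± 0.28, edgeR adjusted p = 0.344). Pdlim1 overlapped, at 1.01, 1.59 and 0.398 CPM against 1.48, 1.25, 0.594 and 1.49 CPM (0.26 ± 0.53, edgeR adjusted p = 0.816), and the difference was -0.21 without PBS replicate 3. That library was also lowest for Lmcd1, at 2.46 CPM against 10.6 and 16.9, and for Papss2, at 1.01 CPM against 9.28 and 10.7. Lmcd1 with tau stood at 12.2 to 15 CPM (log2 difference 0.44 ± 0.53, -0.06 without PBS replicate 3), and Papss2 at 6.96 to 18.9 CPM (0.91 ± 0.72). With DESeq2, RLE size factors, no filter or the replicate block, the log2 difference ran from -1.04 to -0.86 for Kitl. It ran from 0.69 to 0.7 for Baalc and from 0.18 to 0.27 for Pdlim1. For Lmcd1 it ran from 0.44 to 0.8 and for Papss2 from 0.9 to 1.53. Slc9a2 was not tested, at 3 to 36 reads.

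By the adjusted test 0 of 6 members passed with edgeR in the cultures without virus, as did 0% of all 16341 genes. At an unadjusted p under 0.05 there were 2272 genes and 3 members (Trim47, Kitl and Baalc), and DESeq2 called 330 genes and 2 members. The groups did not overlap for 2 of 6 members (background 16.7%). Astrocyte markers stood beside these values: all 10 were higher with tau (median 0.62), with sums of 8760, 10400 and 2370 CPM with PBS and 14600, 12600, 7590 and 10100 CPM with tau. The low sum belongs to PBS replicate 3. Without that library the Trim47 difference was 1.48 (edgeR adjusted p = 0.0786). Over the 7 libraries left out in turn the difference was 1.44 to 1.54, and the edgeR adjusted p ran from 0.0786 to 0.545. The neuron sum was 3900, 3620 and 6260 CPM with PBS and 3360 to 4260 CPM with tau. All 5 oligodendrocyte precursor genes were higher with tau (median 1.48). Their sum was 93, 1770 and 2110 CPM with PBS, in ascending order, and 2430 to 4090 CPM with tau. For 4 genes of dividing cells it was 6.18, 234 and 342 CPM with PBS, in ascending order, and 211 to 347 CPM with tau. In both lists the lowest PBS library lay far below the other PBS libraries. The part of these cells in the differences was not tested.

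In mice, none of the members passed the adjusted edgeR test of upACSS2 against vector. Acss2 itself did not pass it either. Its edgeR adjusted p was 0.832 at 22 to 23 months and 0.518 at 10 months. In PS19 mice it was 0.371 at 1 month and 0.373 at 6 months. The lack of calls therefore does not show that raised ACSS2 leaves the members unchanged. At 22 to 23 months Trim47 stood at 1.16 to 3.44 CPM with upACSS2 (median 1.92) and 0.744 to 2.03 CPM with vector (median 1.43), 12 mice each. The groups overlapped, with a log2 difference of 0.52 ± 0.18 (edgeR adjusted p = 0.832). The other 6 members differed by at most 0.15 on the log2 scale in either direction (Papss2, -0.15 ± 0.10). With edgeR 0 of 7 members and 0% of all genes passed there, 846 genes and 1 member (Trim47) had an unadjusted p under 0.05, and DESeq2 called 1 gene and 0 members. Endothelial markers stood higher beside Trim47, 6 of 6 with a median log2 difference of 0.49 and sums of 60.9 to 190 against 42.1 to 126 CPM. Meningeal markers were 5 of 5 higher (median 0.64) and mural markers 5 of 5 (median 0.3), and their part in the Trim47 values was not tested.

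At 10 months the 6 members tested differed by -0.07 ± 0.17 (Kitl) to 0.15 ± 0.18 (Lmcd1) on the log2 scale, in 6 upACSS2 and 5 vector mice. Trim47 was too low to be tested, at 0.198 to 2.07 CPM. With edgeR 0 of 6 members and 0% of all genes passed, against 1204 genes and 0 members at an unadjusted p under 0.05 and 5 genes and 0 members with DESeq2.

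In PS19 mice 1 month after injection, Pdlim1 stood at 4.52, 2.45, 2.33, 1.95 and 2.02 CPM with upACSS2 and at 3.65, 3.4, 3.88, 4.8 and 3.74 CPM with vector. Replicate 1 alone of the upACSS2 mice reached the vector range, and the log2 difference of -0.60 ± 0.25 (SE, n = 5 and 5) did not pass (edgeR adjusted p = 0.964). With edgeR 0 of 7 members and 0% of all genes passed, with 463 genes and 1 member (Pdlim1) at an unadjusted p under 0.05, and DESeq2 called 1 gene and 0 members. At 6 months 0 of 7 members and 0% of all genes passed with edgeR, with 2237 genes and 0 members unadjusted, and DESeq2 called 139 genes and 0 members. For Kitl 1 vector mouse stood at 60 CPM and the other 4 at 9.5 to 19.2 CPM, and the log2 difference was -0.50 ± 0.45 with that mouse and 0.24 without it.

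Between 1 and 6 months Trim47 was higher in PS19 mice of both virus groups on average. Both 6-month groups and the 1-month vector group are dorsal hippocampus, so with upACSS2 time and dissection cannot be told apart. With vector it stood at 2.14, 2.87, 1.53, 1.82 and 3.13 CPM at 1 month and 3.01, 2, 6, 4.72 and 3.37 CPM at 6 months (log2 difference 0.74 ± 0.27, edgeR adjusted p = 0.0909). Leaving out 6-month vector replicate 2 brought the adjusted p to 0.0396. With upACSS2 it stood at 1.96, 1.49, 1.57, 1.76 and 2.65 CPM against 3.65, 2.63, 3.61, 3.21 and 2.21 CPM (0.71 ± 0.28, edgeR adjusted p = 0.277). Pdlim1 differed by 0.41 ± 0.24 with vector and by 0.71 ± 0.25 with upACSS2 (edgeR adjusted p = 0.232). Lmcd1 was higher in every 6-month upACSS2 mouse, at 5.12 to 5.79 CPM against 2.71 to 4.98 CPM (log2 difference 0.41 ± 0.19, edgeR adjusted p = 0.341).

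With edgeR 0 of 7 members passed over time with vector (7.46% of all genes passed) and 0 of 7 with upACSS2 (0.0442% passed), and DESeq2 called 0 members in both. At an unadjusted p under 0.05 there were 1 member and 3984 of 15850 genes with vector, and 3 members and 2166 genes with upACSS2. The difference between virus groups in the change over time passed for none of the 7 (edgeR adjusted p from 0.675 to 0.983). Beside the vector comparison over time, 6 of 7 microglial markers (median 0.40), 9 of 10 astrocyte markers (0.16), 5 of 5 oligodendrocyte precursor markers (0.62) and 5 of 6 endothelial markers (0.23) were higher at 6 months. Beside the upACSS2 comparison, 5 of 5 choroid plexus markers (median 1.59, sums of 81.8 to 1350 against 126 to 5890 CPM), 5 of 5 mural markers (0.49, 48.5 to 65.5 against 85.8 to 106 CPM), 6 of 6 endothelial markers (0.37) and 7 of 7 microglial markers (0.30) were higher. Their part was not tested.

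**Figure D4:**
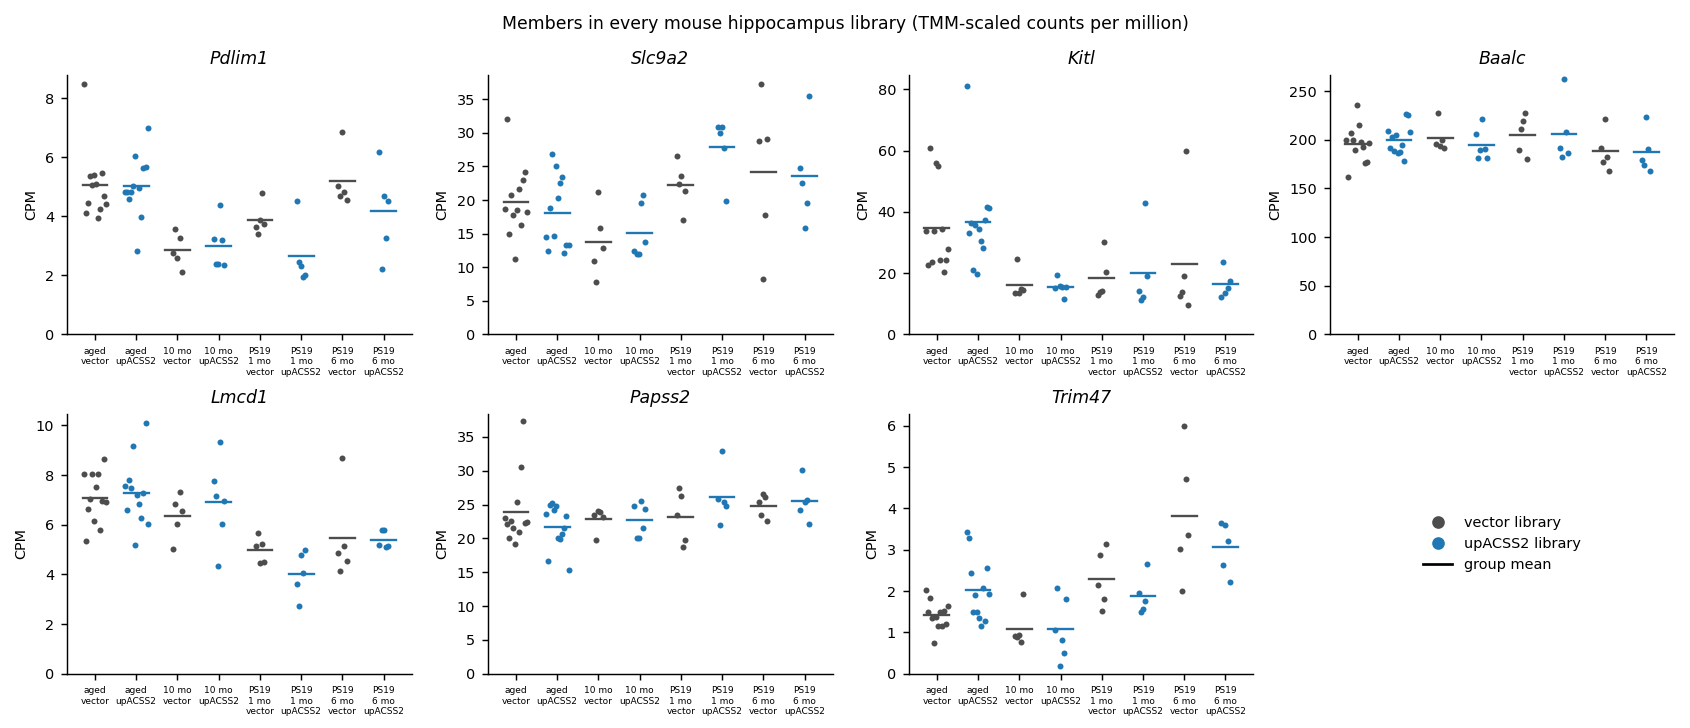
CPM of each of the 7 genes in every mouse library (linear axis from 0), by age, virus and months after injection, with each point a mouse and each bar the group mean. Kitl reaches 60 CPM in 1 vector mouse of the PS19 line at 6 months, and the groups overlap for most genes.

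The settings ordered the members differently. Trim47 had medians of 0.915 CPM at 10 months, 1.5 CPM at 22 to 23 months and 2.64 CPM in PS19 hippocampus, 3.1 CPM in day 9 neurons, and 11.7, 16.4 and 24.3 CPM in stimulated, unstimulated and virus-free day 21 cultures. The ranges of the 3 day 21 settings overlapped, as did those of the mouse tables. Papss2 was lowest in day 9 neurons (median 0.308 CPM), between 3.21 and 9.31 CPM on day 21, and between 22.4 and 25.3 CPM in mice. Slc9a2 did not exceed 6.72 CPM in any culture library and had medians of 12.9, 18.6 and 24.1 CPM in mice. Baalc had medians of 47.4 CPM on day 9, 70.5 CPM on unstimulated day 21 and 190 to 198 CPM in mice. Kitl had a median of 32.6 CPM on day 9 and of 16.9 CPM on day 21, where its highest library of 23 CPM lay below the lowest day 9 library of 28.3 CPM. Pdlim1 had medians of 1.25 to 4.88 CPM in the 7 settings, and Lmcd1 of 2.71 to 7.12 CPM in all but the virus-free cultures, where its median was 13 CPM. These levels are set side by side across tables that were normalized separately, apart from the 2 unstimulated days, which share a table.

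Genes with related roles were counted from lists of PDZ-LIM adaptors, sulfate handling, Kit signalling, acid-base transport, TRIM genes and actin-linked genes. On day 9 with vector, 1 of 18 acid-base genes tested rose with tau and 1 fell, 2 of 11 actin-linked genes fell, and none of the 19 PDZ-LIM, 29 sulfate, 11 Kit and 22 TRIM genes passed. Over the 6 lists 1 of 110 genes rose and 3 fell, a share near the 4.28% of all genes. The bicarbonate transporter Slc4a8 rose by 0.48 ± 0.08 on the log2 scale (edgeR adjusted p = 0.00243), while Car8, a member of the carbonic anhydrase family, fell by 0.96 ± 0.20 (0.00975). The actin-binding genes Cnn2 and Flna fell by 0.94 ± 0.20 (0.0106) and 0.35 ± 0.09 (0.0366). With upACSS2 on day 9 none of 110 genes in the 6 lists passed with edgeR and 12 had an unadjusted p under 0.05, and in the cultures without virus none of 116 passed and 24 had one. In the virus-free cultures Papss1, the paralog of Papss2, differed by 0.51 ± 0.23 on the log2 scale (edgeR adjusted p = 0.371) and Kit by 0.38 ± 0.23 (0.448).

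The PDZ-LIM list, without Pdlim1, was mostly lower with tau in vector neurons on day 21 and mostly higher in unstimulated upACSS2 neurons. Of its 23 genes, 3 were higher with tau in unstimulated vector neurons (median log2 difference -0.24) and 17 with upACSS2 (0.16), and after stimulation 4 with vector (-0.23) and 11 with upACSS2 (-0.02). The actin-linked list had 3 of 11 genes higher with vector (-0.22) and 9 of 11 with upACSS2 (0.19), then 2 of 12 (-0.44) and 7 of 12 (0.05) after stimulation. The median over all genes was between -0.01 and 0.01 in these comparisons. On day 9 with PBS, 6 of 110 listed genes were higher and 4 lower with upACSS2 than with vector, a share near the 10.2% of all genes. Among them were Pdlim5 (-0.25, edgeR adjusted p = 0.0107), Slc9a8 (0.24, adjusted p = 0.0252), Slc4a8 (0.36, adjusted p = 0.00795), Trim33 (0.19, adjusted p = 0.0125) and Sult2b1 (-0.44, adjusted p = 0.0393). With tau, 2 of 110 were lower with upACSS2 than with vector (0.692% of all genes passed), Slc9a5 (-0.63, adjusted p = 0.00966) and Hs6st2 (-0.27, adjusted p = 0.0483). Over time in PS19 vector mice 6 of 121 rose and 2 fell, where 7.46% of all genes passed. In these mice Flna rose by 0.86 ± 0.17 (edgeR adjusted p = 0.00642) and Vcl, an actin-anchoring gene, by 0.71 ± 0.12 (adjusted p = 0.00241) between 1 and 6 months.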

How the data were processed

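The deposited files are 6 tables of raw gene counts with gene symbols, made by the authors with mm10, STAR, featureCounts, HTSeq and DESeq2 named in the submitters' processing notes without roles. Versions, settings and strand are not given in the sources used here. The table of cultures without virus has a nameless row holding 6.13% to 8.74% of each library, which was left out.

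Samples were grouped by title. The treatment field contradicts the titles of vector neurons with tau, upACSS2 neurons with PBS, and 6 PS19 libraries at 1 month. Tests on the counts used the quasi-likelihood method of edgeR 4.0.16 (R 4.3.3; TMM scaling, filterByExpr, Benjamini-Hochberg adjustment over all genes tested, threshold 0.05), with 1 fit for day 9, unstimulated day 21, stimulated day 21 and each other table. DESeq2 1.42.0 was an alternative. Genes tested ran from 13629 (10 months) to 16341 (cultures without virus). CPM used TMM factors over all libraries of a table. Figures used matplotlib 3.10.9, and the steps were tested on simulated data.

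The 7 members and the lists were chosen with earlier results of these data known, and the tables used for the choice also hold day 9. All members are named, with the 3 genes most correlated with each (Pearson, log2 CPM with a prior count of 2, centred within table, genes with a mean of at least 1 in both day 21 tables), up to 2 called genes per list and direction, and marker lists. For the cultures without virus the fit with the replicate block is given for Trim47, and within a range over settings for the other members tested. Same-numbered libraries deviated together in these cultures (correlations 0.22 to 0.394) and in stimulated vector neurons (0.123 to 0.326), which were only described. In the other comparisons at least 1 pair correlated below 0.1. No pair of 242 within groups differed by less than sampling noise (lowest chi-square per gene 2.24). Settings tried were RLE size factors, no filter, DESeq2, the block, other sets of libraries in the fit, and leaving out each library.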

Additional observations from a re-analysis of the deposited data

Results flagged for a closer look

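In 10 of 49 group checks a library lay far from the rest of its group. About 5% would be expected by chance for independent, normally distributed values, and checks of several genes in 1 library are not independent. The checks covered the 10-month groups, the PS19 groups and the virus-free tau group. Culture groups of 3 libraries and the aged groups were not checked. Vector mouse 2 at 10 months stood at 19.7 CPM for Papss2 (others 23.1 to 24), 24.6 CPM for Kitl (others 13.4 to 14.9) and 227 CPM for Baalc (others 192 to 200). Vector mouse 5 at 10 months stood at 1.93 CPM for Trim47, from 10 reads (others 0.772 to 0.946). In PS19 mice with upACSS2 at 1 month, replicate 1 stood at 4.52 CPM for Pdlim1 (others 1.95 to 2.45), replicate 4 at 42.9 CPM for Kitl (others 11.3 to 19.2) and replicate 5 at 19.9 CPM for Slc9a2 (others 27.7 to 30.8). In PS19 vector mice at 6 months, replicate 3 stood at 6.86 CPM for Pdlim1 (others 4.55 to 5.04) and 8.69 CPM for Lmcd1 (others 4.15 to 5.13), and replicate 4 at 60 CPM for Kitl (others 9.5 to 19.2).

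Trim47 was higher in every tau library of the cultures without virus, by 1.5 on the log2 scale. In stimulated vector neurons it was lower in every tau library, with a log2 difference of -1.26. These 2 comparisons differ in stimulation as well as in virus. Unstimulated day 21 neurons gave -0.60 ± 0.40 with vector and 0.91 ± 0.40 with upACSS2, both with overlap. The difference between these comparisons, which come from tables normalized separately, was not tested.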

How the results depend on the processing

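On day 9 with vector, the count of members past the threshold was 1 (Kitl) in the 12-library fit and 0 with the replicate block (Kitl edgeR adjusted p = 0.0545), with only the 2 groups compared (0.0786) and with all 24 unstimulated libraries in 1 fit (1); it was 0 to 1 when each library was left out. In the cultures without virus the count was 0, against 2 with DESeq2 (Kitl and Trim47), 1 with RLE size factors and 1 without the filter (Trim47 in both); with the replicate block it stayed at 0 (Trim47 adjusted p = 0.262). For PS19 vector mice over time it was 0, and 0 to 1 when each mouse was left out. Pdlim1 on day 9 with vector ranged from -0.03 to 0.38 on the log2 scale over left-out libraries, and Kitl in PS19 mice at 6 months from -0.69 to 0.24. The replicate block changed no other call among the members. A further 62 sign changes concerned members within 1 SE of 0 that passed no test. With a term for the aged replicates 1 to 3, chosen after seeing the data, Trim47 differed by 0.5 (edgeR adjusted p = 0.193).

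Counts over all genes moved more. Day 9 tau calls with vector were 600, and 1 to 1153 under other settings and 60 to 1409 over left-out libraries; with upACSS2 they were 49, 0 to 201 and 1 to 23. UpACSS2 against vector on day 9 gave 1437 calls with PBS (2 to 1898 and 529 to 1287) and 97 with tau (1 to 368 and 14 to 132). The cultures without virus gave 0 (0 to 330), the aged mice 0 (0 to 14), the 10-month mice 0 (0 to 5), and PS19 mice 0 at 1 month (0 to 1) and 0 at 6 months (0 to 139). PS19 vector mice over time gave 1182 (656 to 1887 and 374 to 1376), and upACSS2 mice 7 (0 to 176 and 0 to 16). The causes were not tested. Depth limits Papss2 on day 9, Slc9a2 in the cultures without virus and Trim47 at 10 months, which were not tested.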
